A study of Mus musculus with 16 samples.

Results

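A set of 9 genes that regulate the transcription factor NF-kB, called inhibitors here, was followed in group 2 innate lymphoid cells (ILC2). These cells are tissue-resident lymphocytes of the gut wall that make type 2 cytokines. The name inhibitor is loose, since the nuclear IkB proteins in the set can raise as well as lower target genes. The genes were Nfkbia, Nfkbib, Nfkbie, Nfkbid, Nfkbiz, Bcl3, Tnfaip3, Tnip1 and Cyld. They were chosen by name, with earlier results of these data known. All 9 of the 9 were found among the 53465 genes of the count table and passed the expression filter. The cells were sorted from the first 5 cm of the small intestine of untreated C57BL/6 mice aged 6 to 10 weeks, and RNA was sequenced in 16 libraries, 4 for each of 4 genotypes.

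The St2 KO mice lacked St2, the receptor for the cytokine IL-33, which is encoded by the gene Il1rl1. The Il25 KO mice lacked the cytokine IL-25. The Alox5 KO mice lacked the lipoxygenase that starts leukotriene synthesis. The wild-type (WT) mice carried none of these deletions. The deletions are written as homozygous in the labels, which tie them to no cell type. All 4 groups, WT included, were homozygous for the smart13 allele at Il13. The St2 KO and Il25 KO groups were also homozygous for the Yarg allele at Arg1, which the Alox5 KO and WT groups did not carry. These alleles are therefore matched in St2 KO against Il25 KO and in Alox5 KO against WT, and differ by Yarg in the other comparisons.

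NF-kB dimers are held in the cytoplasm by the classical IkB proteins, encoded by Nfkbia (IkB-alpha), Nfkbib (IkB-beta) and Nfkbie (IkB-epsilon), until a signal through the IKK kinases sends these proteins to degradation. The nuclear, or atypical, IkB proteins encoded by Nfkbid (IkB-NS), Nfkbiz (IkB-zeta) and Bcl3 bind NF-kB subunits on DNA and raise or lower single target genes. Tnfaip3 encodes the ubiquitin-editing enzyme A20, Tnip1 encodes the A20-binding protein ABIN1 and Cyld encodes a deubiquitinase, and these proteins act on the ubiquitin chains upstream of IKK. Several of these inhibitors are themselves transcribed in response to NF-kB, which makes their RNA part of a negative feedback loop. IL-33 signals through St2 and the adaptor MyD88 to IKK.

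The feedback loop is read through kappaB sites in promoters, so stretches that hold such letters are shown for some of the genes described here. The 250 bases before each annotated start were taken from RefSeq on GRCm38.p6 for 8 of the 9 genes, in 11 start windows. Nfkbiz had no entry. Both strands were searched for the 10-letter NF-kB consensus decamer and for GGNNTTTCC, a 9-letter form that can overlap it. Capitals mark every match, and all stretches read 5′ to 3′ on the strand of the gene. The 250 bases before Nfkbia (chr12:55492648-55492897, minus strand) held a 9-letter match from 178 to 170 bases before the start and another, overlapping a decamer match, from 29 to 20 bases before it.
Nfkbia: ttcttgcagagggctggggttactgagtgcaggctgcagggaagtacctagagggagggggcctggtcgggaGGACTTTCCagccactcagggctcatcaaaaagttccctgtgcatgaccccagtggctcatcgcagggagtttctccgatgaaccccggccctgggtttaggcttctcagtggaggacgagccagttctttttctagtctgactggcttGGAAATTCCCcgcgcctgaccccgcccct
For the genes below, 30 bases around a match are shown, to set the genes that were lower in St2 KO cells beside Tnip1 and Cyld, which were not called. Matches were also found for Nfkbie and Bcl3, not called either, and in a further Tnfaip3 stretch, and are not printed. Nfkbid has 3 annotated starts, and its matches lie before the middle one, at chr7:30422170-30422199 and chr7:30422215-30422244 (plus strand). The Tnfaip3 stretch is chr10:19015411-19015440 (minus strand), the Tnip1 stretch chr11:54962978-54963007 (minus strand) and the Cyld stretch chr8:88696863-88696892 (plus strand). In the Tnfaip3 window that holds matches, 110 of the 250 bases lie in annotated Tnfaip3 exons. The window of the other Tnfaip3 start held no match.
Nfkbid, first: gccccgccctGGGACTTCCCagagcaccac
Nfkbid, second: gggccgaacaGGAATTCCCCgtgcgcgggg
Tnfaip3: gtgactGGAATTTCCatcGGAAATCCCCct
Tnip1: tccatcatgGGGGAATTCCCCtcctgcctc
Cyld: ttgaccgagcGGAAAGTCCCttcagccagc
Of the 11 windows, 6 held the decamer, which 7.25% of all 32807 annotated upstream windows of this length held, and 4 held GGNNTTTCC, which 4.93% of all windows held. Either form was found for 7 of the 8 genes, Nfkbib being the one with neither. Genes with and without a lower level in St2 KO cells both carried matches, and a match is only a run of letters in this window.

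Total gene counts ran from 2086864 to 3216937 per library (median 2625205.5), and levels are given as CPM, the counts scaled to the library total. Nothing in the labels ties a library to a mouse of its own, so the p-values rest on library-to-library spread, which may be technical. Letter codes in the sample descriptions split the libraries into set TS (replicates 1 and 2 of every genotype), set TT (replicates 3 and 4 of Alox5 KO and WT) and set TY (replicates 3 and 4 of St2 KO and Il25 KO). What the letters stand for is not given. Xist counts were 982 to 1682 in the 4 TY libraries and at most 7 in the other 12, so sex differed between TY and the other sets. The ILC2 genes Gata3, Rora, Il7r, Il17rb and Klrg1 were detected in every library, the least of them, Klrg1, at 366 CPM or more. Some other ILC2 markers were low, such as Thy1 at 13.15 to 31.36 CPM and Il13 at 1.554 to 12.26 CPM. Alox5 averaged 9.84 ± 3.39 CPM in Alox5 KO libraries and 96.2 ± 32.8 CPM in WT libraries (SD, n = 4 each). Il1rl1 averaged 173 ± 37.6 CPM in St2 KO libraries and 216 ± 34.7 CPM in WT libraries, and since counts per gene do not show which exons were read, they do not check the St2 KO label. Il25 had 0 counts in every library and checks nothing either.

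Per kilobase of exon, the 9 genes spanned more than a factor of 10 in WT cells. Nfkbia led with a mean of 440 CPM per kb (range 428 to 465, n = 4), rank 16 among 11728 tested genes with a known length. Tnfaip3, Nfkbiz and Nfkbid followed at 179 ± 16.5, 178 ± 7.49 and 163 ± 22.5 CPM per kb (SD), with overlapping ranges. Nfkbib stood at 60.6 ± 8.01 CPM per kb, above all 4 WT values of Nfkbie, which averaged 41.5 ± 6.51 CPM per kb. Tnip1 (33.7 ± 1.57), Bcl3 (32.8 ± 4.36) and Cyld (28.3 ± 2.06 CPM per kb) closed the order, and in that order each of Nfkbie, Tnip1, Bcl3 and Cyld overlapped its neighbour. The 4 most abundant inhibitors per kilobase in WT cells were the 4 whose level was lower in St2 KO cells.

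**Figure D1:**
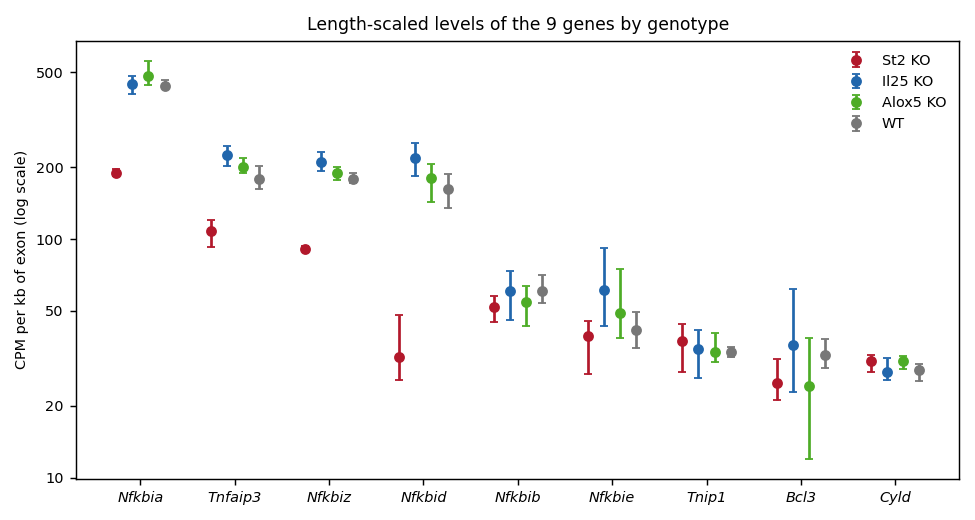
Mean CPM per kilobase of exon (log scale) of the 9 genes in order of their WT level, for St2 KO, Il25 KO, Alox5 KO and WT cells, with bars from the lowest to the highest of 4 libraries. The St2 KO points of Nfkbia, Tnfaip3, Nfkbiz and Nfkbid lie below the bars of the other genotypes, and Nfkbid drops to 32.2 CPM per kb, among the least abundant of the 9 genes.

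In St2 KO cells, Nfkbia, Nfkbid, Nfkbiz and Tnfaip3 were lower than in WT cells, and the same 4 genes were lower than in Il25 KO and in Alox5 KO cells. Against WT, the level that remained ran from 18.3% for Nfkbid to 59.2% for Tnfaip3. The other 5 inhibitors did not pass the threshold, an adjusted p of 0.05 in edgeR's quasi-likelihood test over 11742 genes. Of the 9 genes, 4 were called, all lower, where 35 of all tested genes (0.298%) were called in either direction and 22 (0.187%) were called lower. Since the 9 were chosen with earlier results known, such shares are set side by side as a description only. In bulk RNA, fewer cells that transcribe a gene and less RNA of it per cell cannot be told apart.

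**Figure D2:**
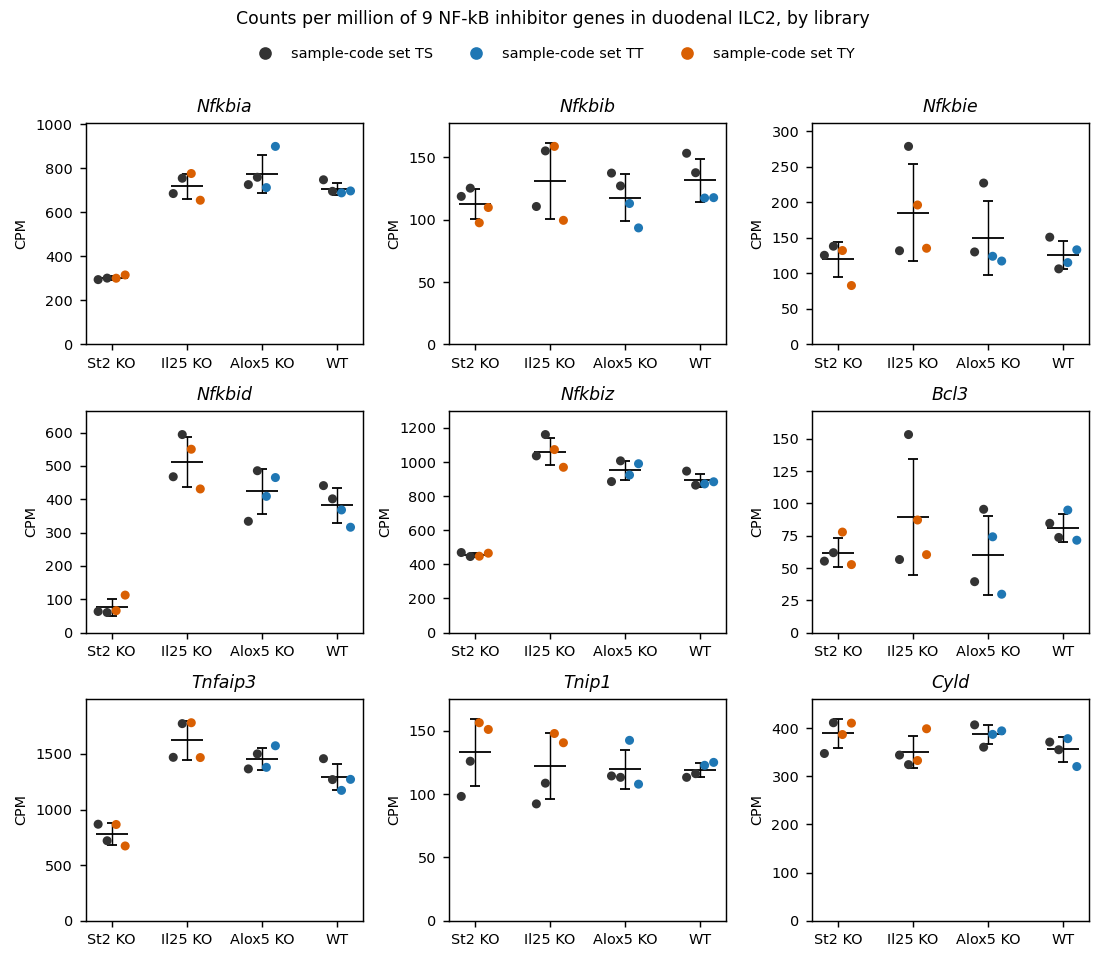
CPM of each of the 9 genes in the 4 libraries of St2 KO, Il25 KO, Alox5 KO and WT cells, with points coloured by sample-code set and bars for the mean ± SD. For Nfkbia, Nfkbid, Nfkbiz and Tnfaip3 all 4 St2 KO points lie below all 12 others, and for the remaining 5 genes they mix with them.

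Among the classical inhibitors, Nfkbia is the one best known as an immediate NF-kB target. The gene (ENSMUSG00000021025) lies at chr12:55489410-55492647 on the minus strand in GENCODE M21 on GRCm38. It measured 295, 302, 301 and 316 CPM in St2 KO replicates 1 to 4, against 749, 696, 689 and 698 CPM in the WT replicates. Il25 KO cells held 686, 756, 777 and 656 CPM, and Alox5 KO cells 727, 760, 713 and 900.4 CPM. The St2 KO values were close to each other and below the lowest of the 12 other libraries, 656 CPM. The level was 2.35-fold lower in St2 KO than in WT cells (log2 fold change -1.23 ± 0.11 SE, adjusted p = 4.614e-06). It was 2.45-fold lower than in Il25 KO cells (adjusted p = 6.829e-08) and 2.59-fold lower than in Alox5 KO cells (adjusted p = 1.09e-06).

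Nfkbib and Nfkbie, the other classical inhibitors, overlapped between St2 KO and WT. Nfkbib, the IkB that is resynthesised slowly and is not a strong NF-kB target, ran from 97.5 to 125 CPM in St2 KO cells and from 117 to 153 CPM in WT cells (log2 fold change -0.32, 95% interval -0.68 to 0.04, adjusted p = 0.7179). Its exons share 42 bases with Sirt2 and 314 bases with Ccer2, which had 0 counts, both on the opposite strand. Whether reads were counted by strand is not given, and if they were not, reads there cannot be assigned. Nfkbie averaged 120 ± 25.1 CPM in St2 KO cells and 126 ± 19.8 CPM in WT cells (log2 fold change -0.10, interval -0.72 to 0.51, adjusted p = 0.9622). Against Il25 KO cells, which held 186 ± 68.8 CPM with one library at 279 CPM, Nfkbie gave a log2 fold change of -0.68 ± 0.23 SE and an adjusted p of 0.2243. The count of Nfkbia over that of Nfkbib in the same library, a ratio that needs no scaling, was 2.71 ± 0.323 in St2 KO, 5.64 ± 0.888 in Il25 KO, 6.80 ± 1.94 in Alox5 KO and 5.43 ± 0.543 in WT cells (SD, n = 4 each). Its St2 KO range, 2.41 to 3.09, lay below the ranges of the other genotypes.

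Of the nuclear inhibitors, Nfkbid showed the lowest St2 KO level relative to the other genotypes. IkB-NS, its product, lacks a transactivation domain and binds p50-containing dimers. The gene (ENSMUSG00000036931) lies at chr7:30421732-30428746 on the plus strand. It measured 63.4, 60.3, 65.8 and 113 CPM in St2 KO replicates 1 to 4, against 441, 401, 368 and 316 CPM in WT. Il25 KO cells held 468, 594, 550.3 and 431 CPM, and Alox5 KO cells 334, 486, 409 and 465 CPM. Replicate 4 of St2 KO was the highest of its group, and the lowest library of another genotype, at 316 CPM, still exceeded it. The level was 5.47-fold lower than in WT (log2 fold change -2.45 ± 0.22 SE, adjusted p = 4.614e-06), 7.02-fold lower than in Il25 KO (adjusted p = 1.957e-08) and 6.14-fold lower than in Alox5 KO cells (adjusted p = 1.794e-06).

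Nfkbiz encodes IkB-zeta, a nuclear IkB that works as a co-activator of secondary NF-kB response genes such as Il6 in mouse macrophages. The gene (ENSMUSG00000035356) lies at chr16:55811375-55838899 on the minus strand. It measured 469, 446, 448 and 466 CPM in St2 KO replicates 1 to 4, against 947, 865, 872 and 884 CPM in WT. Il25 KO cells held 1036, 1161, 1073 and 969 CPM, and Alox5 KO cells 885, 1007, 924 and 990.0 CPM. The St2 KO libraries were tightly grouped, with a coefficient of variation of 2.62%, and lay below all others. The level was 1.94-fold lower than in WT (log2 fold change -0.95 ± 0.10 SE, adjusted p = 1.268e-05), 2.39-fold lower than in Il25 KO (adjusted p = 9.694e-09) and 2.09-fold lower than in Alox5 KO cells (adjusted p = 2.872e-06).

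Nfkbid and Nfkbiz fell by different factors in St2 KO cells. The 95% interval of the log2 fold change of St2 KO over WT ran from -2.92 to -1.98 for Nfkbid and from -1.15 to -0.76 for Nfkbiz. Within a library, the count of Nfkbid over that of Nfkbiz was 0.165 ± 0.0516 in St2 KO, 0.480 ± 0.0373 in Il25 KO, 0.443 ± 0.0469 in Alox5 KO and 0.428 ± 0.0508 in WT cells (SD, n = 4 each). Bcl3, which pairs with p50 and p52 dimers, was too variable to place. It ran from 52.6 to 77.8 CPM in St2 KO, 56.6 to 153 in Il25 KO, 29.7 to 95.5 in Alox5 KO and 71.5 to 94.8 CPM in WT cells, and St2 KO over WT gave a log2 fold change of -0.36 with an interval of -1.19 to 0.47 (adjusted p = 0.8873).

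Tnfaip3, the gene of A20, was among the genes with the most raw counts. Raw counts also depend on exon length, which was 7226 bases for Tnfaip3. Per kilobase of exon it ranked 153 among 11728 tested genes in WT cells. By raw count it ranked 3 to 5 in the WT libraries and 1 to 3 in the Il25 KO libraries, where it headed at least one library, while in St2 KO libraries it ranked 20 to 57. The gene (ENSMUSG00000019850) lies at chr10:19000910-19015657 on the minus strand. It measured 868, 719, 865 and 672 CPM in St2 KO replicates 1 to 4, against 1457, 1269, 1172 and 1271 CPM in WT. Il25 KO cells held 1469, 1772, 1780 and 1467 CPM, and Alox5 KO cells 1365, 1500, 1379 and 1573 CPM. All St2 KO libraries lay below the other 12. The level was 1.69-fold lower than in WT (log2 fold change -0.76 ± 0.13 SE, adjusted p = 0.009229), 2.14-fold lower than in Il25 KO (adjusted p = 6.478e-06) and 1.92-fold lower than in Alox5 KO cells (adjusted p = 0.0009101). The call against WT was the least secure of the 4. Without WT replicate 1 the log2 fold change was -0.66 (adjusted p = 0.09455), and without St2 KO replicate 2 it was -0.68 (adjusted p = 0.0964).

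Tnip1 and Cyld, which act with or beside A20 on ubiquitin chains, were not called in any of the 6 comparisons. Tnip1 averaged 133 ± 26.7 CPM in St2 KO cells and 119 ± 5.52 CPM in WT cells, with a log2 fold change of -0.05 (interval -0.34 to 0.23, adjusted p = 0.9587) once the sample-code set was in the model. Its values were higher in set TY than in TS, at 156 and 151 against 98.1 and 126 CPM in St2 KO and at 148 and 141 against 92.2 and 109 CPM in Il25 KO. Cyld averaged 389 ± 30.0 CPM in St2 KO cells and 356 ± 25.8 CPM in WT cells (log2 fold change 0.06, interval -0.15 to 0.26, adjusted p = 0.936). Its interval lay apart from that of Tnfaip3, which ran from -1.03 to -0.48. The count of Tnfaip3 over that of Cyld was 2.03 ± 0.406 in St2 KO, 4.69 ± 0.863 in Il25 KO, 3.77 ± 0.372 in Alox5 KO and 3.64 ± 0.403 in WT cells (SD, n = 4 each).

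**Figure D3:**
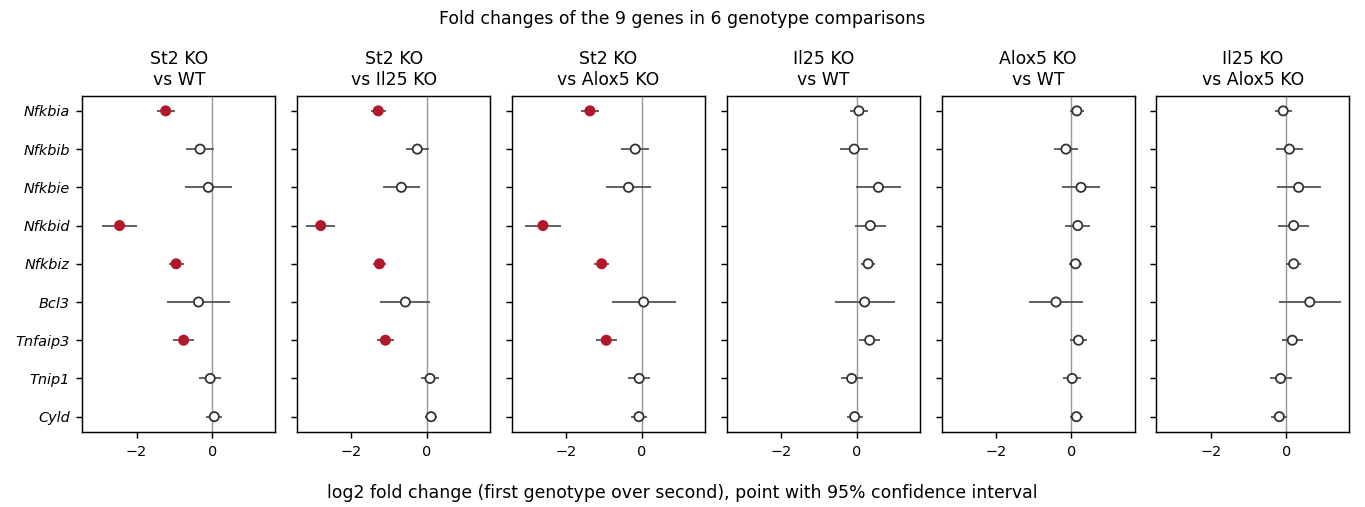
Log2 fold changes of the 9 genes in 6 genotype comparisons, first genotype over second, with 95% confidence intervals. Filled red points passed an adjusted p of 0.05. Filled points appear only in the 3 comparisons with St2 KO, for Nfkbia, Nfkbid, Nfkbiz and Tnfaip3 in each, with Nfkbid farthest from 0.

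Against Il25 KO cells, which share the Yarg and smart13 alleles with St2 KO, the same 4 of 9 genes were called lower, where 1.24% of tested genes were called and 0.852% were called lower. Against Alox5 KO cells the 4 were again called lower, where 0.485% were called and 0.307% were called lower. These comparisons share the St2 KO libraries, so they are not separate lines of evidence. In 1 test over all 4 genotypes, 4 of 9 were called where 1.17% of genes were. All 4 St2 KO libraries lay below all 12 others in CPM for 4 of the 9 genes, and for 92 of all tested genes (0.784%). Together the 4 genes took 0.153% to 0.170% of all counts in the St2 KO group and 0.310% to 0.428% elsewhere, while the other 5 inhibitors took 0.0745% to 0.0863% with St2 KO and 0.0735% to 0.102% elsewhere.

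Between the genotypes other than St2 KO, none of the 9 genes was called by edgeR. Il25 KO against WT gave 0 of 9, where 0.417% of tested genes were called. An unadjusted p under 0.05 was found for 1092 of all 11742 genes and for 2 of the 9. These were Nfkbiz, at 1060 ± 80.0 CPM in Il25 KO and 892 ± 37.5 CPM in WT cells (log2 fold change 0.30, interval 0.11 to 0.50, adjusted p = 0.2475), and Tnfaip3, at 1622 ± 178 CPM in Il25 KO and 1292 ± 119 CPM in WT cells (log2 fold change 0.34, interval 0.07 to 0.62, adjusted p = 0.3865). In both, all 4 Il25 KO libraries lay above all 4 WT libraries, as they did for 299 of all tested genes (2.55%). Alox5 KO against WT gave 0 of 9, with 0 at an unadjusted p under 0.05, where 0.102% were called and 842 of all genes had such a p. Its widest interval was that of Bcl3, -1.11 to 0.29 on the log2 scale, and the Nfkbia interval ran from -0.04 to 0.33. Il25 KO against Alox5 KO gave 0 of 9, with 1 (Nfkbiz) at an unadjusted p under 0.05, where 0.392% were called and 1100 of all genes had such a p. DESeq2 called 0 of 9 in each of these 3 comparisons as well.

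Sample-code set TS holds all genotypes and, by Xist, one sex, and set TY holds St2 KO and Il25 KO only, so the differences could be read inside a set, with 2 libraries per genotype and the spread taken from all 16. For St2 KO against Il25 KO within TS, Nfkbia, Nfkbid, Nfkbiz and Tnfaip3 were called lower, with log2 fold changes of -1.33, -3.16, -1.31 and -1.08, where 0.349% of genes were called. Within TY the 4 were called lower at -1.25, -2.49, -1.20 and -1.12, where 0.375% were called. For St2 KO against WT within TS they were called lower at -1.30, -2.79, -1.005 and -0.80, where 0.255% were called. There Tnfaip3 had an adjusted p of 0.04598, and of 0.09283 when the TS libraries were fitted alone. The difference between TY and TS in the St2 KO over Il25 KO fold change was itself tested, and 0 of 9 genes and 0% of all genes passed in edgeR, with 0 of the 9 and 572 of all genes at an unadjusted p under 0.05. For Nfkbid that difference was 0.66 on the log2 scale, with an interval of -0.09 to 1.42. The corresponding test of Alox5 KO over WT, TT minus TS, also gave 0 of 9 and 0% of all genes, with 0 and 474 at an unadjusted p under 0.05.

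**Figure D4:**
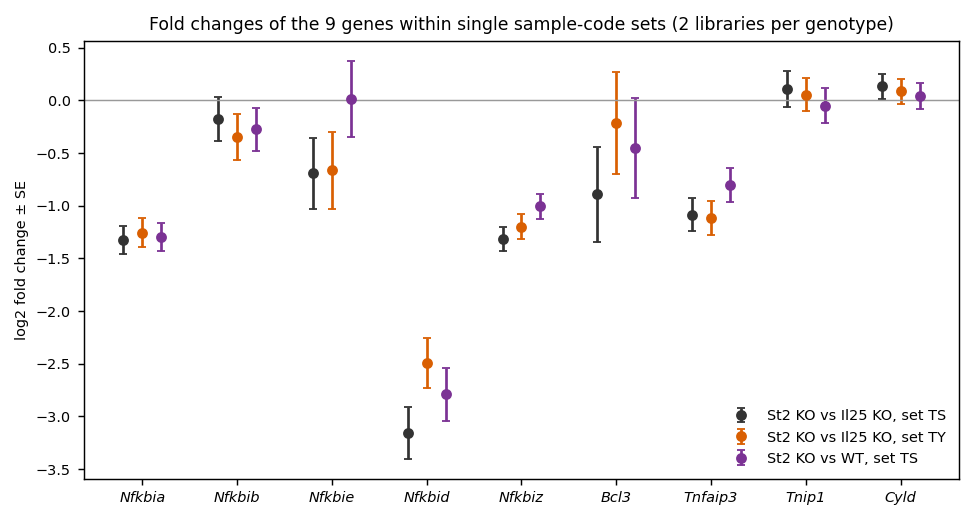
Log2 fold changes (± SE) of the 9 genes within single sample-code sets of 2 libraries per genotype, for St2 KO over Il25 KO in sets TS and TY and for St2 KO over WT in set TS. Nfkbia, Nfkbid, Nfkbiz and Tnfaip3 are below 0 in all 3, and Nfkbid is at -3.16, -2.49 and -2.79.

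The genes around the inhibitors in the pathway were read from lists chosen for their role, also with earlier results of these data known. None of the 5 NF-kB subunit genes was called between St2 KO and WT by edgeR, with 1 at an unadjusted p under 0.05. Their median log2 fold change was -0.21, beside 0.01 over all genes. Of all 11742 genes, 880 had an unadjusted p under 0.05 in that comparison. Rel, the c-Rel subunit, averaged 141 ± 34.9 CPM in St2 KO and 301 ± 79.7 CPM in WT cells (log2 fold change -1.17, unadjusted p = 0.006745, adjusted p = 0.394). Against Il25 KO, 1 of the 5 was called, where 1.24% of all tested genes were. It was Nfkb1, the p105 precursor of p50, at 836 ± 43.9 CPM in St2 KO and 1279 ± 194 CPM in Il25 KO cells (adjusted p = 0.01315). The 23 genes of IKK and upstream signalling had a median of -0.04 in St2 KO over WT. Of them, 1 was called lower, where 0.187% of all tested genes were. It was Map3k8, the kinase Tpl2 that binds p105, at 39.5 ± 9.31 CPM in St2 KO and 131 ± 39.9 CPM in WT cells (adjusted p = 0.001248). Against Il25 KO the median was -0.01, and 3 of the 23 were called, where 1.24% of all tested genes were. Map3k8 (log2 fold change -1.86, adjusted p = 0.0001044) and Map3k14, the kinase NIK of the non-canonical pathway (-0.94, adjusted p = 0.04607), were lower. Irak3, an inhibitor of signalling downstream of MyD88, was higher, at 173 ± 89.1 CPM in St2 KO and 44.6 ± 17.7 CPM in Il25 KO cells (log2 fold change 1.89, adjusted p = 0.001503), beside 165 ± 44.4 CPM in WT cells. The IKK genes Chuk, Ikbkb and Ikbkg had log2 fold changes of 0.18, -0.01 and -0.09 and adjusted p-values of 0.8694, 0.9912 and 0.9453. None of the 14 tested partners of A20 and CYLD in ubiquitin chain editing (of 15 listed) was called by edgeR against WT, with 1 at an unadjusted p under 0.05, and their median was 0.02. It was Spata2, which bridges CYLD to its complex, with a log2 fold change of 1.17 (unadjusted p = 0.02484, adjusted p = 0.5938).

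Of 26 other known NF-kB target genes tested (28 listed), 4 were called lower in St2 KO than in WT and 0 higher. Of all tested genes, 0.187% were called lower. The median log2 fold change of the 26 was -0.34. Csf2, which encodes the cytokine GM-CSF, averaged 74.7 ± 16.3 CPM in St2 KO and 266 ± 13.2 CPM in WT cells (adjusted p = 1.268e-05). Gadd45b, a stress-response gene, averaged 214 ± 21.1 CPM in St2 KO and 536 ± 39.8 CPM in WT cells (adjusted p = 1.829e-05). Ptgs2, the inducible cyclooxygenase, averaged 7.52 ± 4.39 CPM in St2 KO and 127 ± 26.3 CPM in WT cells (adjusted p = 0.007879), and Map3k8 was the fourth. Of the 26, 21 were below 0 and 12 had an unadjusted p under 0.05, as did 880 of all 11742 genes. Among targets not called, Birc2 (log2 fold change 0.02), Sod2 (-0.13) and Il2ra (-0.16) were near 0, with adjusted p-values of 0.9857, 0.8527 and 0.8336. Traf1 (-0.90, adjusted p = 0.2667), Zc3h12a (-1.08, adjusted p = 0.394) and Cd83 (-1.68, adjusted p = 0.6202) were lower without being called. Against Il25 KO 9 of 26 were called lower, among them Traf1, Zc3h12a, Birc3 and Irf1, where 0.852% of all tested genes were. The median of the 26 was -0.69.

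Some immediate early genes, a class induced by many stimuli and by tissue digestion, were also lower in St2 KO cells. Of 29 tested (30 listed), 5 were called lower in St2 KO than in WT, 12 than in Il25 KO and 6 than in Alox5 KO, and none was called higher. Of all tested genes, 0.187%, 0.852% and 0.307% were called lower in these comparisons. Zfp36, which encodes the mRNA-decay factor tristetraprolin, averaged 102 ± 26.1 CPM in St2 KO and 515 ± 42.0 CPM in WT cells (adjusted p = 8.176e-08). Ier5, Nr4a1, Fosb and Btg2 were the other 4 called against WT. Fos (log2 fold change -0.17, adjusted p = 0.7529), Dusp1 (-0.12, adjusted p = 0.8545) and Hspa8 (-0.12, adjusted p = 0.8574) were not called against WT. Jun (-1.20, adjusted p = 0.0733), Egr1 (-2.39, adjusted p = 0.1626) and Atf3 (-1.76, adjusted p = 0.394) were lower without being called. Against WT, 21 of the 29 were below 0 and 12 had an unadjusted p under 0.05, beside 880 of all 11742 genes with such a p. Against Alox5 KO, 25 were below 0. Hspa1a (log2 fold change 2.59, adjusted p = 0.2854), Hspa1b (1.63, adjusted p = 0.3452) and Dnajb1 (0.48, adjusted p = 0.295) were above 0 there without being called. The summed level of the list was 6879 to 7547 CPM in St2 KO, 9433 to 11340 in Il25 KO, 9083 to 9802 in Alox5 KO and 8899 to 9910 CPM in WT libraries. Whether handling of the tissue had a part in the levels of the inhibitors was not tested.

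**Figure D5:**
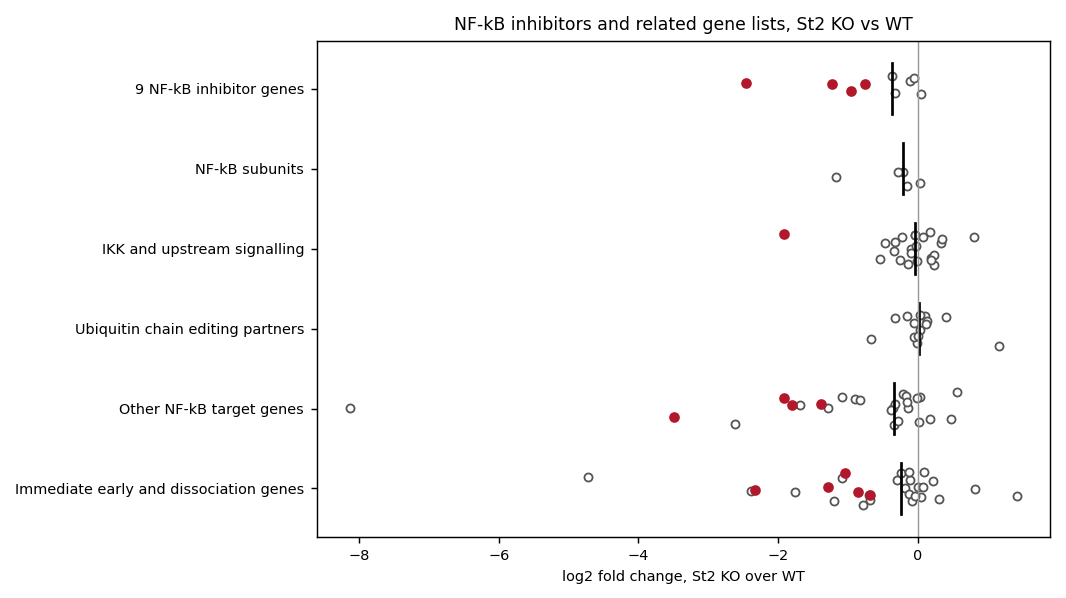
Log2 fold changes of St2 KO over WT for the 9 inhibitors and 5 gene lists, 1 point per gene, with a bar at the median and filled red points for an adjusted p under 0.05. Genes listed under 2 headings, such as Map3k8, are drawn in both rows. The called points lie below 0 in every row that has any, and the rows of IKK and of ubiquitin editing genes centre near 0.

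Transcripts listed as markers of other cell types were present beside those of ILC2. Summed over 10 B and plasma cell markers, the level was 754 to 2128 CPM in St2 KO, 1949 to 2694 in Il25 KO, 789 to 2815 in Alox5 KO and 2385 to 2717 CPM in WT libraries. Most of this came from plasma cell and immunoglobulin transcripts, with a median over the 16 libraries of 695 CPM for Igha, 547 for Ighm, 478 for Jchain and 343 for Igkc. Ighm stayed between 449 and 598 CPM, while the lowest values of Igha, Jchain and Igkc were 7.17, 1.99 and 22.3 CPM. Ighm thus did not follow the other 3, and which cells it came from was not tested. Cd79b had a median of 147 CPM and Ms4a1, which marks B cells before the plasma cell stage, one of 0 CPM. Every St2 KO library lay below the lowest WT library in the summed level, at most 2128 against 2385 CPM. All 9 tested markers were below 0 in St2 KO over WT, with a median log2 fold change of -0.72 and none called. The part of these cells in the levels of the inhibitors was not tested. The refit given below leaves this difference from WT in place, so it cannot test that part. Of the 10 macrophage and dendritic cell markers 2 passed the filter (Cd74 and H2-Ab1), the summed level was 151 to 317 CPM in St2 KO, 186 to 867 in Il25 KO, 213 to 393 in Alox5 KO and 178 to 366 CPM in WT libraries, and Lyz2, Csf1r and Adgre1 had a median of 0 CPM. The 7 T cell markers summed to 104 to 165 CPM in St2 KO, 77.1 to 129 in Il25 KO, 61.3 to 188 in Alox5 KO and 127 to 172 CPM in WT libraries. Most of this was Cd3g, with a median of 98.8 CPM, followed by Cd3e at 18.3 CPM, while Cd4 and Cd8a had a median of 0 CPM and Cd8b1 had 0 counts in every library. Replicate 1 of St2 KO and replicates 1 and 2 of Alox5 KO were low in plasma cell transcripts. Without these 3 libraries, the St2 KO over WT log2 fold changes were -1.27 for Nfkbia, -2.46 for Nfkbid, -0.99 for Nfkbiz and -0.91 for Tnfaip3, and all 4 were called (highest adjusted p = 0.03263). Against Alox5 KO, with 2 Alox5 KO libraries left, Tnfaip3 gave -1.20 and an adjusted p of 0.07206. Of the 14 ILC2 markers none was called by edgeR between St2 KO and WT or Il25 KO. At an unadjusted p under 0.05 there were 5 and 8, beside 880 and 1321 of all 11742 genes. Against WT, 12 of the 14 markers were below 0, with a median log2 fold change of -0.19. The lowest were Areg (-1.86, adjusted p = 0.3373), Il13 (-1.46, adjusted p = 0.5993) and Id2 (-0.51, adjusted p = 0.09086). Against Alox5 KO 1 was called lower, Id2 (log2 fold change -0.56, adjusted p = 0.03277), where 0.307% of all tested genes were.

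Across all 16 libraries, the genes whose log2 CPM most resembled each called inhibitor are given as a description, since the points share depth, composition and the low St2 KO group. Zfp36 gave r = 0.95 with Nfkbia and 0.95 with Nfkbid, Gadd45b gave 0.95 with Tnfaip3, and Arl5c gave 0.95 with Nfkbiz. Without the St2 KO libraries, over the 12 that remain, Zfp36 gave r = -0.02 with Nfkbia and 0.03 with Nfkbid, while Arl5c kept 0.81 with Nfkbiz and Gadd45b 0.75 with Tnfaip3. Between inhibitors, how far the value depended on the St2 KO libraries differed by pair. Nfkbia and Nfkbid correlated at r = 0.92 over 16 libraries and at -0.60 over those 12, and Nfkbid and Tnfaip3 at 0.91 and 0.73. The uncalled inhibitors had other neighbours, with Rhog closest to Nfkbie (r = 0.91), Pim2 to Bcl3 (0.86), B3gat3 to Tnip1 (0.93) and Utp6 to Cyld (0.94).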

How the data were processed

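Raw counts per gene in 1 table were deposited by the authors. The submitters' processing notes name HTSeq 0.4.1, STAR 2.4.2a, FastQC 0.11.3, Picard 1.134 and the build GRCm38. Whether duplicate reads were removed, and with which settings and annotation reads were counted, is not given in the sources used here. Nfkbia averaged 1.13 reads per exonic base in WT libraries, so removal of duplicates, if done, could compress its differences. It could also shape the ranks by raw count, where Tnfaip3 headed Il25 KO replicate 3 at only 1780 CPM. After 6 rows with a repeated identifier were dropped, 53465 genes were kept.

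Counts were tested with edgeR 4.0.16 (quasi-likelihood F test, robust, TMM, filterByExpr by genotype) in 1 fit of all 16 libraries with genotype and sample-code set, with Benjamini-Hochberg adjustment over 11742 genes. The newer mode of that fit was settled with counts under both modes known. The test was also run on simulated counts, and since the outcome is not given here, that run does not vouch for the p-values. CPM use column totals and exon lengths come from GENCODE M21. Alternatives were other scalings, no filter, no set term, single sets, a replicate block, DESeq2 1.42.0, leaving out libraries and edgeR's legacy mode, which was added after the data were seen. Replicate pairs differed by a chi-square per degree of freedom of 5.04 to 10.9, more than counting noise gives, so no library was counted as a repeat of another. Separate libraries from 1 mouse would not be seen this way. Members and lists were chosen with earlier results of these data known. Genes named are the 9 members, for each the 3 genes with the highest correlation (for 8 members the closest is printed, and that of Nfkbib is not reported here), and called list members, up to 6 by p-value, in a comparison. Other genes named were chosen after their values were seen.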

Additional observations from a re-analysis of the deposited data

Results flagged for a closer look

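Of 36 groups of 4 libraries looked at, 3 held 1 library far from its group, with a gap to the nearest other library above Dixon's critical share of the group's range, which chance gives in about 1 group of 20. Nfkbid was at 113 CPM in St2 KO replicate 4, against 60.3 to 65.8 CPM in the other 3 St2 KO libraries (gap 0.896 of the range). Nfkbie was at 227 CPM in Alox5 KO replicate 2, against 117 to 130.2 CPM in the other 3 (0.883). Nfkbia was at 749 CPM in WT replicate 1, against 689 to 698 CPM in the other 3 (0.852).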

How the results depend on the processing

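The 12 called values (4 genes in 3 comparisons with St2 KO) kept their sign in all 192 refits with 1 library left out and all 112 other refits, and kept their call in 190 and 109 of these. The 5 losses were all Tnfaip3: without WT replicate 1 and without St2 KO replicate 2 against WT (values above), in set TS alone against WT (-0.80, adjusted p = 0.09283) and against Alox5 KO (-0.88, adjusted p = 0.05791), and without the 3 libraries low in plasma transcripts against Alox5 KO (-1.20). The 42 uncalled values changed sign in 21 of 672 refits with 1 library left out and in 23 of 392 others. Nfkbie passed in St2 KO against Il25 KO without Il25 KO replicate 1 (-0.90, adjusted p = 0.03937).

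Counts of all genes called moved more, and the causes were not tested. Counts follow the order St2 KO vs WT, Il25 KO vs WT, Alox5 KO vs WT, St2 KO vs Il25 KO, St2 KO vs Alox5 KO, Il25 KO vs Alox5 KO and any of the 4 genotypes, with comparisons that moved by 1.5 times or less left out where stated. With DESeq2 they were 72, 91, 61, 244, 105, 107 and 277. Without the 3 libraries they were 21, 26, 3, 90, 11, 2 and 83. With no set term, St2 KO vs WT, Il25 KO vs WT, St2 KO vs Alox5 KO and Il25 KO vs Alox5 KO gave 58, 95, 122 and 81. In set TS alone, the counts from Il25 KO vs WT on were 9, 3, 33, 19, 12 and 42, and in set TY alone St2 KO vs Il25 KO gave 30. The legacy mode gave 5 for Alox5 KO vs WT. With 1 library left out, the ranges were 19 to 45, 31 to 53, 6 to 20, 80 to 168, 27 to 64, 19 to 45 and 95 to 164, and members called were 3 to 4 in St2 KO vs WT and 4 to 5 in St2 KO vs Il25 KO.

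Libraries with the same replicate number were little alike: 3 of 24 such pairs had a correlation of deviations over 0.1 (range -0.08 to 0.19). Of the 16 libraries, 7 were closest to their own number. What chance gives was not worked out, so pairing was not excluded. With the replicate block in place of the set, counts were 66, 98, 20, 138, 144, 105 and 242, and the members called stayed at 4, 0, 0, 4, 4, 0 and 4. Depth limits the low inhibitors, with Bcl3 as low as 29.7 CPM in a library.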
